A study of Mus musculus with 6 samples.

Results

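The genes described here are p53 and its target genes, a list of 32 named mouse genes that was looked up by symbol in a table of 55401 genes. Each of the 32 had 1 row, and all 32 were among the 12766 genes that passed the filter on low values. The list holds Trp53, the gene of p53 itself, its inhibitors Mdm2 and Mdm4, and 29 genes that p53 is known to switch on. They were measured by sequencing messenger RNA from hepatic stellate cells, the vitamin A-storing pericytes of the liver that become myofibroblasts and deposit collagen when cultured. The cells came either from wild-type (WT) mice or from mice heterozygous for the calcium-binding protein gene S100a16 (S100a16+/-). Both genotypes were on the C57BL/6J background, and all cells were grown for 7 days in medium with serum. There were 3 libraries per genotype. The labels give no age, do not say how the S100a16 allele was made, and do not say whether each library is a separate animal, so p-values measure only the spread between these libraries, which may be technical.

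p53 is a transcription factor whose protein is held low by Mdm2, which marks it for degradation, and by its relative Mdm4. DNA damage and other stresses free p53 from both, and it then raises genes for cell cycle arrest, cell death, DNA repair and metabolic restraint, with Mdm2 among them as a feedback brake. Because control acts mostly on the protein, the Trp53 transcript does not by itself report p53 activity, and the target genes are the usual readout. In activated stellate cells, p53 is known for driving a senescent arrest that limits liver scarring.

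p53 binds a 20-base element made of a pair of 10-base half-sites, the p53 consensus element. It was searched for in the RefSeq windows (build GRCm38.p6) that run from 250 bases before to 50 bases after each annotated transcription start. The element reads alike on both strands, so a single pass covers them. The windows of 24 members, 36 in all, were in that table. A full element with no spacer and at most 1 mismatch was found in 3 of the 36 windows (8.33%) and in 29 of all 32851 windows (0.0883%). The 3 are shown because they are the closest matches near a start among these genes; capitals mark the 4-base core of each half-site, and each runs 5′ to 3′ on the strand of its gene.
Cdkn1a, chr17:29090928-29090947, plus strand, first base 51 bases before the upstream start: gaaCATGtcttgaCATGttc
Ccng1, chr11:40755462-40755481, minus strand, first base 195 bases before the start: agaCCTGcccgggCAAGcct
Gtse1, chr15:85859945-85859964, plus strand, first base 1 base before the downstream start: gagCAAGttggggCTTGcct
A perfect single half-site was present in 11 of the 36 windows (30.6%), from 10 members, against 8.36% of all windows. The Aen windows counted here overlap each other. The members were listed as known p53 targets, so an excess of elements or half-sites over all windows is not independent evidence. A match is a description of these letters only, and many p53 elements lie in introns or farther away, outside these windows.

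S100a16 itself had an FPKM (counts scaled to gene length and library depth) of 18.0, 17.7 and 30.0 in S100a16+/- replicates 1 to 3 and of 57.7, 58.8 and 56.8 in WT, lower in each S100a16+/- library (log2 change -1.35, adjusted p = 0.0313 by edgeR). Library totals ran from 61979103 to 76291481 counts. S100a16+/- replicate 3 stood apart: across genes it correlated with S100a16+/- replicates 1 and 2 at 0.930 and 0.929, while these correlated with each other at 0.987 and the WT libraries among themselves at 0.981 to 0.985 (Pearson, log2(FPKM + 1); genes are not independent replicates). It was also the library with female-type expression, with an Xist FPKM of 32.2 against at most 0.0323 elsewhere. The labelled stellate cell type was checked against marker genes. Of 15 listed stellate markers 11 passed the filter, and Acta2 and Vim were the most abundant. Acta2 was at an FPKM of 388 to 489 in 5 libraries and 48.0 in S100a16+/- replicate 3. The retinoid enzyme gene Lrat, a marker of resting stellate cells, was at most 0.0517. The macrophage gene Lyz2 ranged from 4377 to 10060 and the endothelial gene Cdh5 from 283 to 930, so the cultures held transcripts of other liver cells. The summed FPKM of 15 macrophage markers, 10440 to 18350, was above that of the 15 stellate markers, 357 to 1292, in every library. In such bulk samples, fewer cells of a type and less RNA per cell cannot be told apart.

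Few of the p53 target genes passed the test between the genotypes, and those that did had opposite directions. Over all 6 libraries 1 of the 32 genes rose, the death receptor gene Fas, and 1 fell, the kinase gene Plk3 (edgeR quasi-likelihood with Benjamini-Hochberg adjustment over all genes, called at an adjusted p under 0.05). Among all tested genes, 364 (2.85%) were called higher and 206 (1.61%) lower, so these counts of members are near the background. At an unadjusted p under 0.05 by edgeR were 10 of the 32 members and 2807 of the 12766 genes tested. The split over all genes was 282 higher and 252 lower with library totals alone and 260 and 247 with limma on log2(FPKM + 1), and both still called Fas higher and Plk3 lower. The median log2 change of the members, S100a16+/- over WT, was -0.05, against 0.00 for all tested genes. The changes ran from -0.45 for Tnfrsf10b to 0.66 for Fas; 20 were below 0 and 12 above, and 30 of the 32 lay within 0.5 of 0, as did 84.6% of all tested genes. A different tool, DESeq2, called 4 members higher, Cdkn1a, Fas, Perp and Tigar, and 2 lower, Gtse1 and Plk3, where it called 8.81% of all genes higher and 5.98% lower.

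**Figure D1:**
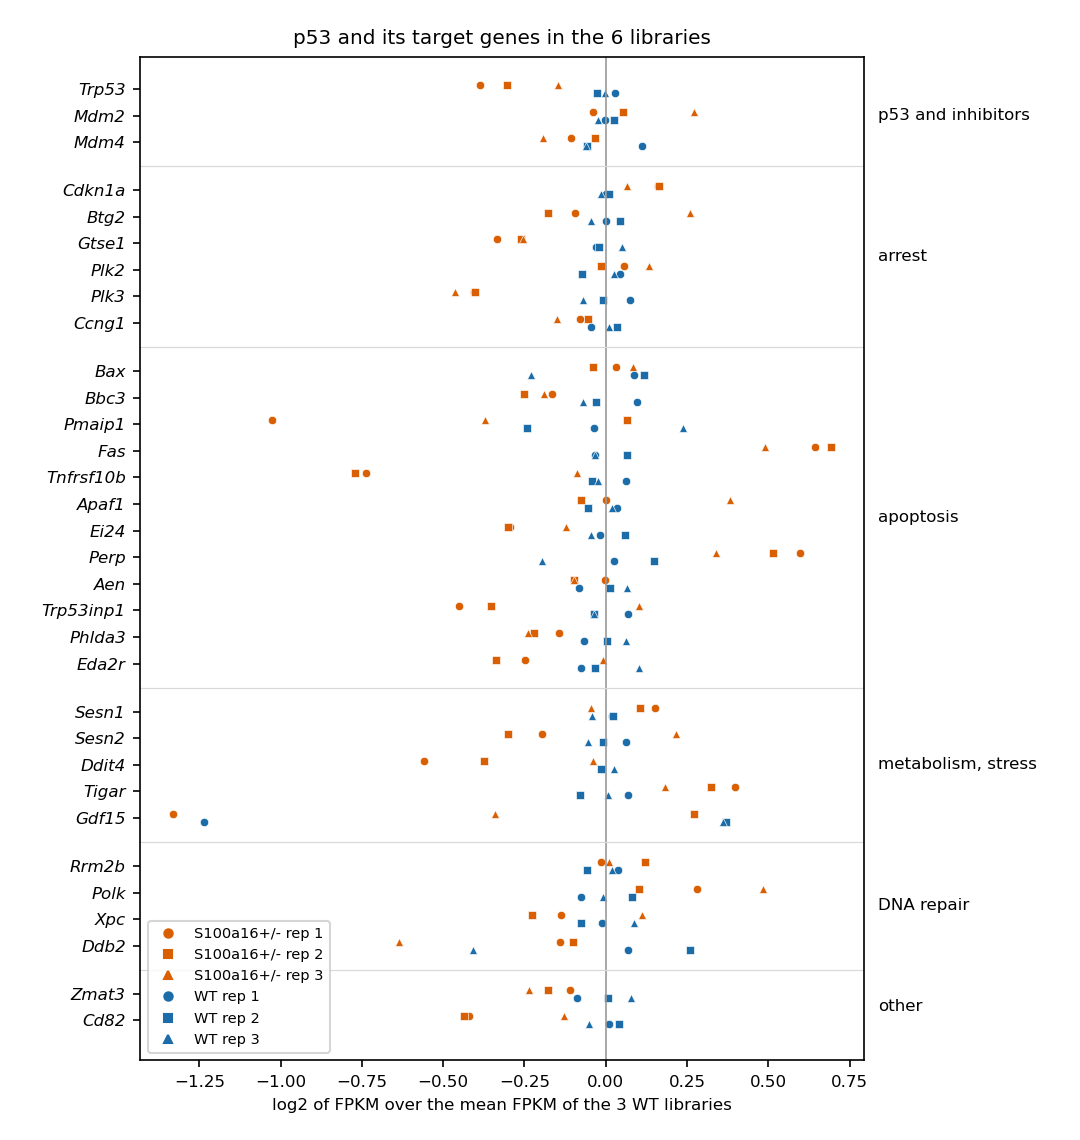
Each point is the FPKM of 1 gene in 1 library as a log2 ratio to the mean of the 3 WT libraries, with the genes grouped by role, S100a16+/- libraries in orange and WT libraries in blue. Fas, Perp and Tigar are among the 5 genes with all S100a16+/- points to the right of all WT points. Plk3 and Gtse1 are among the 11 with them to the left, and Gdf15 and Pmaip1 are widely spread within the genotypes.

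Trp53 (ENSMUSG00000059552, chromosome 11, 69580359 to 69591873, plus strand, GRCm38 as for all positions here) had an FPKM of 25.0, 26.5 and 29.5 in S100a16+/- replicates 1 to 3 and of 33.4, 32.1 and 32.6 in WT. Each S100a16+/- library was below each WT library, and replicate 3 came closest. The means were 27.0 ± 2.30 and 32.7 ± 0.651 (SD, n = 3 each), and over all 6 libraries the gene was not called, at a log2 change of -0.22 (SE 0.07, adjusted p = 0.145 by edgeR). Leaving out S100a16+/- replicate 3 gave a called change of -0.28 (adjusted p = 0.00781 by edgeR).

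The p53 inhibitor genes overlapped between the genotypes and were not called. Mdm2 (ENSMUSG00000020184, chromosome 10, 117688875 to 117710758, minus strand), both inhibitor and target of p53, had an FPKM of 23.4, 25.0 and 29.0 in S100a16+/- cells and of 24.0, 24.5 and 23.65 in WT. The groups overlapped, with only replicate 3 clearly above WT, and the log2 change of 0.15 (SE 0.08) was not called (adjusted p = 0.363 by edgeR). Mdm4 ran from 3.315 to 3.70 in S100a16+/- and from 3.63 to 4.10 in WT, also overlapping (log2 change -0.06, adjusted p = 0.744 by edgeR).

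Cdkn1a, which encodes the cell cycle inhibitor p21 and carries the element shown above, was the most abundant of the 32 genes, with a mean FPKM of 107 over all libraries. Its gene (ENSMUSG00000023067) lies on chromosome 17 from 29090976 to 29100727, plus strand. S100a16+/- replicates 1 to 3 had 114.2, 114.5 and 107.0 FPKM, and WT 102.3, 103.0 and 101.1. Every S100a16+/- library was above every WT library, by a small margin: the means were 111.9 ± 4.24 and 102.2 ± 0.959 (SD, n = 3 each). The log2 change of 0.18 (SE 0.07) was not called by edgeR (adjusted p = 0.191), was called by DESeq2 (adjusted p = 0.0410), and was 0.22 without S100a16+/- replicate 3 (adjusted p = 0.00507 by edgeR).

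Plk3, a polo-like kinase of the stress response (ENSMUSG00000028680, chromosome 4, 117128655 to 117133963, minus strand), was the 1 arrest gene that fell over all 6 libraries. Its FPKM was 12.99, 13.01 and 12.5 in S100a16+/- cells and 18.1, 17.1 and 16.4 in WT. The groups did not overlap and the 3 S100a16+/- libraries lay close together, replicate 3 included. Mean Plk3 in S100a16+/- cells reached 74.6% of that in WT, 12.8 ± 0.303 against 17.2 ± 0.876 (SD, n = 3 each), and Plk3 had a log2 change, with SE, of -0.37 ± 0.07 (adjusted p = 0.0497 by edgeR). The call is close to the threshold: it held without S100a16+/- replicate 3 (adjusted p = 0.0130 by edgeR) and ended without any of the other 5 libraries, S100a16+/- replicates 1 and 2 and WT replicates 1 to 3 (edgeR adjusted p from 0.148 to 0.187).

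Gtse1, a protein of the G2 phase that binds p53 and restrains it, was lower in all 3 S100a16+/- libraries, at 13.6, 14.3 and 14.4 against 16.8, 16.95 and 17.8 in WT (log2 change -0.23, edgeR adjusted p = 0.0981; DESeq2 adjusted p = 0.00549). The other arrest genes differed little. Ccng1, the cyclin G1 gene and the second most abundant member, had means of 83.0 ± 2.79 and 88.6 ± 2.49, and its groups just missed each other. Plk2, a kinase related to Plk3, had 47.05 ± 2.38 and 45.15 ± 1.92, and the antiproliferative gene Btg2 24.1 ± 4.01 and 23.95 ± 0.726 (SD, n = 3 each). Btg2 was highest in S100a16+/- replicate 3, at 28.7 against 21.2 to 24.7 in the other 5 libraries.

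**Figure D2:**
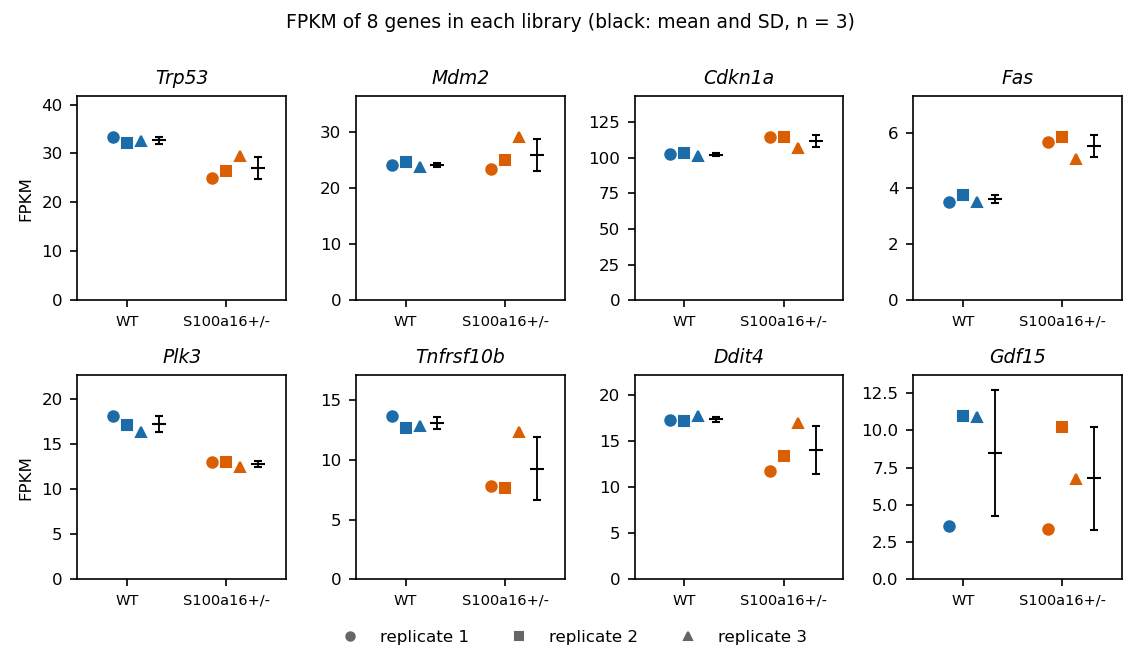
FPKM of Trp53, Mdm2, Cdkn1a, Fas, Plk3, Tnfrsf10b, Ddit4 and Gdf15 in each library, on axes that start at 0, with the mean and SD of each genotype in black (n = 3). Fas, Plk3, Trp53 and Cdkn1a separate the genotypes in all libraries. S100a16+/- replicate 3 of Tnfrsf10b and Ddit4 lies near WT at 12.3 and 16.9, though still below the lowest WT library. Gdf15 is low in replicate 1 of both genotypes at 3.38 and 3.61.

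The 2 p53-regulated receptors of the extrinsic death pathway had changes of opposite sign. Fas (ENSMUSG00000024778, chromosome 19, 34290666 to 34327772, plus strand), the receptor for Fas ligand, was counted 918, 937 and 719 times in S100a16+/- cells and 535, 663 and 588 in WT as deposited, and had an FPKM of 5.645, 5.84 and 5.07 against 3.53, 3.78 and 3.53. On the FPKM scale every S100a16+/- library was above every WT library, and replicate 3 was the lowest of its genotype. Mean Fas in S100a16+/- cells reached 152.8% of that in WT, 5.52 ± 0.4002 against 3.61 ± 0.147 (SD, n = 3 each). Fas rose, with a log2 change and SE of 0.66 ± 0.11 (adjusted p = 0.0367 by edgeR). The call held without S100a16+/- replicate 3 (0.73, adjusted p = 0.00284 by edgeR) and ended without any of the other 5 libraries, S100a16+/- replicates 1 and 2 and WT replicates 1 to 3 (0.61 to 0.68, edgeR adjusted p from 0.126 to 0.177). The ligand gene Fasl, looked up after these values were seen, had at most 19 counts in any library.

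Tnfrsf10b (ENSMUSG00000022074, chromosome 14, 69767472 to 69784411, plus strand), the mouse receptor for the death ligand TRAIL, had an FPKM of 7.84, 7.66 and 12.3 in S100a16+/- cells and of 13.7, 12.7 and 12.9 in WT. Relative to the WT mean, S100a16+/- replicate 1 reached 60.0%, replicate 2 58.6% and replicate 3 94.1%. Over all 6 libraries the log2 change of -0.45 (SE 0.19) was not called (adjusted p = 0.235 by edgeR), while without replicate 3 it was -0.69 (adjusted p = 0.000654 by edgeR). The summed FPKM of 12 endothelial markers was 774 and 741 in S100a16+/- replicates 1 and 2, 1980 in replicate 3 and 1520 to 1683 in WT. The 12 were not uniform. Without replicate 3, 9 were called lower and 2, Clec4g and Fcgr2b, higher (edgeR), where 16.2% and 15.8% of all genes were. Eng was at 104.7% and 99.4% of the WT mean in replicates 1 and 2. The part of endothelial cells in the Tnfrsf10b values was not tested.

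Among the genes of the mitochondrial death pathway none of Bax, Bbc3, Pmaip1 and Apaf1 was called over all 6 libraries by edgeR or DESeq2. Of all genes, edgeR called 4.46%, and DESeq2 8.81% higher and 5.98% lower. An unadjusted p under 0.05 by edgeR was reached by 0 of them, against 2807 of all 12766 genes tested. Bax, which opens the outer mitochondrial membrane, averaged 84.8 ± 3.66 FPKM in S100a16+/- cells, against 83.3 ± 10.7 (SD, n = 3 each) for WT. Bbc3, the gene of the BCL2 antagonist PUMA, was slightly lower in each S100a16+/- library, at 5.82 to 6.18 against 6.60 to 7.41 (log2 change -0.15, adjusted p = 0.387 by edgeR). Pmaip1, the gene of the related protein NOXA, varied widely, at 3.51, 7.47 and 5.52 against 6.97, 6.04 and 8.43, with overlapping groups. Apaf1, the scaffold of the caspase-activating apoptosome, was 8.15 in S100a16+/- replicate 3 and 5.93 to 6.40 in the other libraries.

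Of the other death-related targets, Perp, a membrane protein of cell junctions, was higher in each S100a16+/- library, at an FPKM of 3.46, 3.27 and 2.90 against 2.33, 2.54 and 2.00 in WT. Its log2 change of 0.54 (SE 0.15) was not called by edgeR (adjusted p = 0.114) but was by DESeq2 (adjusted p = 0.0131). Ei24, a membrane protein of the endoplasmic reticulum, was lower in each S100a16+/- library (16.2 to 18.3 against 19.35 to 20.8), as was Phlda3, an inhibitor of the survival kinase Akt (46.2 to 49.4 against 52.0 to 57.0). Neither was called over all 6 libraries (edgeR adjusted p = 0.178 and 0.2495). Trp53inp1, a stress protein that promotes p53 activity, was 12.0 and 12.8 in S100a16+/- replicates 1 and 2, 17.6 in replicate 3 and 15.99 to 17.2 in WT. Eda2r, the receptor of ectodysplasin A2, had 12.1, 11.4 and 14.3 against 13.7, 14.1 and 15.5. The nuclease gene Aen showed no separation, with means of 12.3 ± 0.474 and 12.85 ± 0.652 (SD, n = 3 each).

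Genes that tie p53 to metabolism and growth signals were mixed. Tigar, an enzyme that diverts glucose from glycolysis, was higher in each S100a16+/- library, at an FPKM of 6.11, 5.80 and 5.26 against 4.87, 4.39 and 4.66 in WT. The log2 change was 0.36 (SE 0.10, edgeR adjusted p = 0.109; DESeq2 adjusted p = 0.0144). Ddit4, an inhibitor of the growth kinase complex mTORC1, was 11.8, 13.4 and 16.9 against 17.25, 17.2 and 17.7, so replicates 1 and 2 were clearly below WT and replicate 3 only just (log2 change -0.26, adjusted p = 0.324 by edgeR).

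The sestrin genes Sesn1 and Sesn2, whose proteins also restrain mTORC1, overlapped between genotypes and differed in replicate 3. There Sesn2 was the highest of all 6 libraries at 21.6 and Sesn1 the lowest at 11.95, next to WT replicate 3 at 11.96. Gdf15, a secreted stress cytokine, had 3.38, 10.25 and 6.71 in S100a16+/- cells and 3.61, 11.0 and 10.9 in WT. Its coefficient of variation, 50.7% and 49.8%, was the largest of the 32 genes in both genotypes, against medians over the members of 8.00% in S100a16+/- and 4.26% in WT. The low libraries were replicate 1 of each genotype.

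The DNA repair genes were among the less abundant members. None of the 4 was called by edgeR, which called 4.46% of all genes, or by DESeq2, which called 8.81% higher and 5.98% lower. An unadjusted p under 0.05 by edgeR was reached by 1 of the 4, against 2807 of all 12766 genes tested. Polk, a polymerase that copies past damaged bases, was higher in each S100a16+/- library, at an FPKM of 5.12, 4.52 and 5.89 against 3.99, 4.46 and 4.19 (log2 change 0.35, adjusted p = 0.141 by edgeR). Xpc, a sensor of helix-distorting damage, had means of 6.27 ± 0.780 and 6.61 ± 0.377 (SD, n = 3 each). Rrm2b, a ribonucleotide reductase subunit that supplies building blocks for repair, had means of 1.59 ± 0.0796 and 1.54 ± 0.0536 (SD, n = 3 each). Its counts are uncertain because its locus holds the processed pseudogene Gm3362, which had 29842 counts over the 6 libraries against 6633 for Rrm2b. Ddb2, another damage sensor, was the least abundant member, at 0.739 to 1.37, and overlaps the much more abundant gene Acp2 on the other strand, so its counts are uncertain too.

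Zmat3, an RNA-binding protein gene, and Cd82, a membrane tetraspanin gene, were lower in each S100a16+/- library without a call over all 6. Zmat3 was 9.06 to 9.87 against 10.02 to 11.2 (adjusted p = 0.386 by edgeR). Cd82 was 30.3, 30.0 and 37.15 in S100a16+/- cells and 40.8, 41.8 and 39.1 in WT, so replicate 3 again lay nearer to WT (log2 change -0.27, adjusted p = 0.162 by edgeR).

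Counted by library, the groups failed to overlap for 16 of the 32 genes, 5 higher and 11 lower in S100a16+/-, which is 15.6% and 34.4% of the members. Among all tested genes 31.4% had groups that did not overlap, 12.5% higher and 18.9% lower. These counts use the deposited FPKM, without the library scaling of the edgeR fit. For Ccng1, limma on log2(FPKM + 1) gave a log2 change of -0.09 and edgeR -0.04. The 5 higher genes were Cdkn1a, Fas, Perp, Tigar and Polk. S100a16+/- replicate 3 was above both other S100a16+/- libraries for 16 members and below both for 11, against 44.6% and 41.7% of all tested genes.

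Leaving out S100a16+/- replicate 3 changed the counts most. Without it 5 members were higher, Cdkn1a, Fas, Perp, Sesn1 and Tigar, and 9 lower, Cd82, Ddit4, Ei24, Eda2r, Gtse1, Plk3, Tnfrsf10b, Trp53 and Trp53inp1 (edgeR). The background rose as well, to 15.8% of all tested genes higher and 16.2% lower. For 11 of these 14 genes (78.6%) replicate 3 also lay outside the WT range on the same side, as it did for 55.1% of all 4185 genes called in that fit, and the exceptions among the members were Eda2r, Sesn1 and Trp53inp1. Only S100a16+/- replicates 1 and 2 then stand for the genotype, and the labels do not say that they are different animals.

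**Figure D3:**
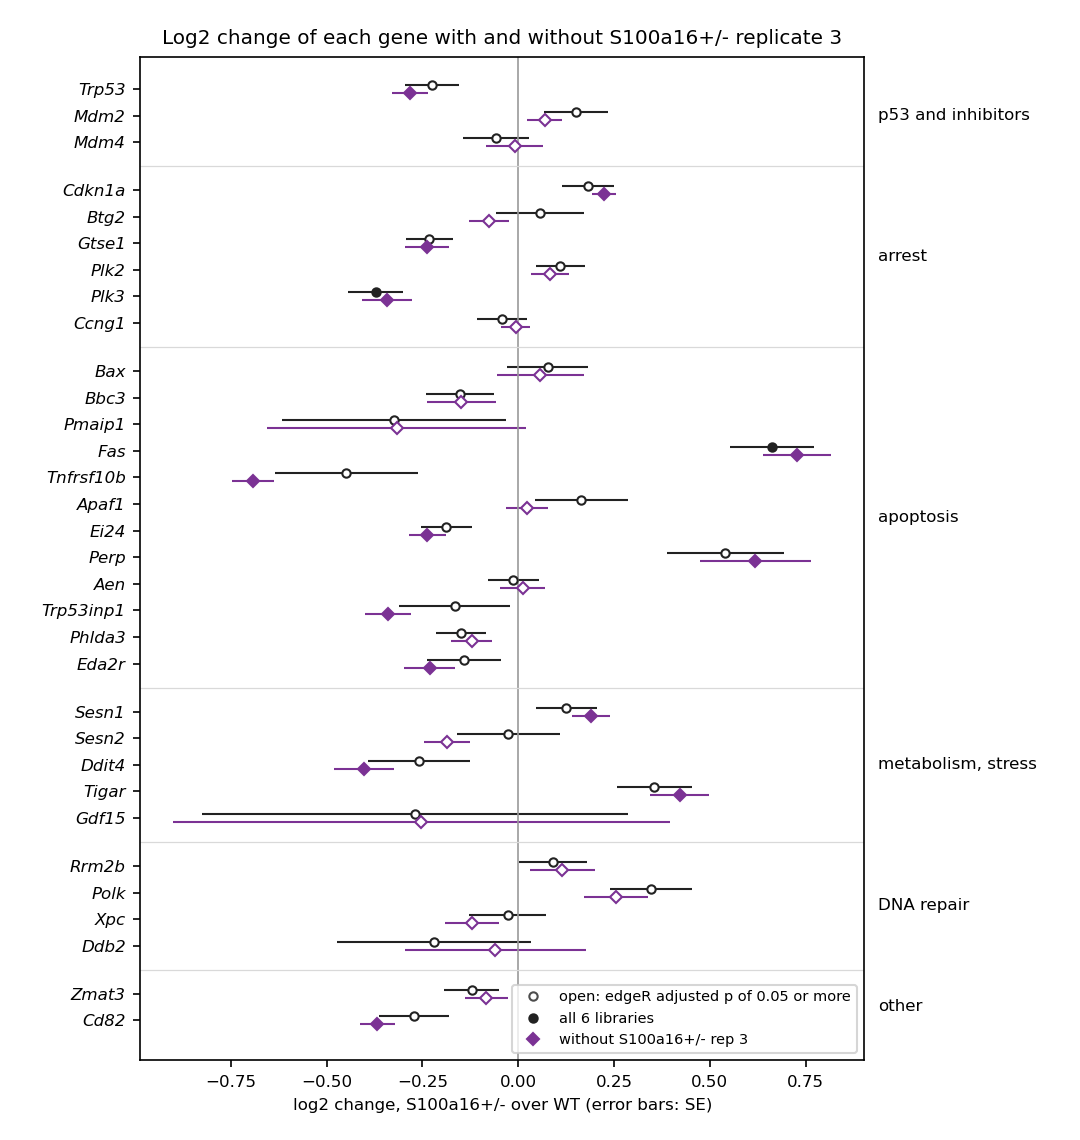
Log2 change (S100a16+/- over WT) with its SE for each of the 32 genes over all 6 libraries (black) and without S100a16+/- replicate 3 (purple), where filled symbols have an edgeR adjusted p under 0.05. Fas and Plk3 are filled in both fits, and 12 further genes are filled only without replicate 3.

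The wider p53 pathway was also looked up. Of the genes annotated to the KEGG p53 signalling pathway in the deposited table, 64 were tested, 45 of them not among the 32 members. By edgeR 1 of the 64 rose, the member Fas, where 2.85% of all genes did. Another 2, not members, fell, where 1.61% of all genes did: the thrombospondin gene Thbs1 and the cyclin gene Ccnb2 (log2 change -1.28, adjusted p = 0.0383 by edgeR). DESeq2 called 8 of the 64 higher and 8 lower, where it called 8.81% and 5.98% of all genes. Without S100a16+/- replicate 3, 14 were called higher and 22 lower (edgeR), where 15.8% and 16.2% of all genes were. Among genes that act upstream of p53, 0 of 25 tested were called by edgeR. An unadjusted p under 0.05 by edgeR was reached by 6, against 2807 of all 12766 genes tested. DESeq2 called 3 higher and 2 lower, where it called 8.81% and 5.98% of all genes. The upstream genes with the smallest p were Trim24, a ubiquitin ligase of p53, at a log2 change of -0.40 and the acetyltransferase gene Ep300 at 0.25 (edgeR adjusted p = 0.0528 and 0.0687). Of 51 other p53 targets 1 rose and 1 fell by edgeR, where 2.85% and 1.61% of all genes did. The 1 that fell, Thbs1, is also on the KEGG list. Rap2b, a small GTPase gene, rose by 0.48 (19.2 ± 1.11 against 14.2 ± 0.311 FPKM, SD, n = 3 each; edgeR adjusted p = 0.0288), and Thbs1 fell by 0.62 on the log2 scale, from 790.6 ± 33.8 to 497.6 ± 14.6 FPKM (SD, n = 3 each; edgeR adjusted p = 0.0317). Like those of Fas, the calls of Rap2b, Thbs1, Ccnb2 and S100a16 held without S100a16+/- replicate 3 and ended without any other single library (edgeR adjusted p up to 0.177).

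Genes that p53 acts on indirectly were also listed. p21, the Cdkn1a product, leads to repression of cell cycle genes through the RB-family and DREAM complexes. Of 33 such genes tested, 10 fell by edgeR, where 1.61% of all genes were called lower. The median log2 change over the list was -0.61, against 0.00 for all tested genes. An unadjusted p under 0.05 by edgeR was reached by 22 of the 33, against 2807 of all 12766 genes tested. None rose by edgeR or DESeq2, and DESeq2 called 21 lower, against 5.98% of all genes. The 10 included the centromere genes Cenpa and Cenpf, at log2 changes of -0.98 and -0.84, the mitotic kinesin gene Kif23 at -0.95 and the replication helicase gene Mcm7 at -0.62 (edgeR adjusted p = 0.0120, 0.0198, 0.0230 and 0.0216). Because earlier results of these libraries were known when the list was chosen, its direction is not independent evidence. The part of p21 in these values was not tested. Without S100a16+/- replicate 3, 23 of 34 were called lower, against 16.2% of all genes (edgeR). With any other library left out, S100a16+/- replicates 1 and 2 or WT replicates 1 to 3, at most 1 was called. Those fits called 24 to 77 of all 13008 to 13064 genes tested (edgeR). Among the 7 cyclin-dependent kinase inhibitor genes none was called over all 6 libraries by edgeR, where 4.46% of all genes were. An unadjusted p under 0.05 by edgeR was reached by 1 of the 7, against 2807 of all 12766 genes tested. DESeq2 called 1 of them higher, Cdkn1a, where it called 8.81% of all genes higher. The inhibitor genes with the smallest p were Cdkn1a and Cdkn2c (log2 change of Cdkn2c -0.36, adjusted p = 0.295 by edgeR). Cdkn2a, whose locus also encodes an inhibitor of Mdm2, had an FPKM of 20.5, 21.5 and 10.25 in S100a16+/- cells and of 17.8 to 21.3 in WT, so only replicate 3 was low.

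**Figure D4:**
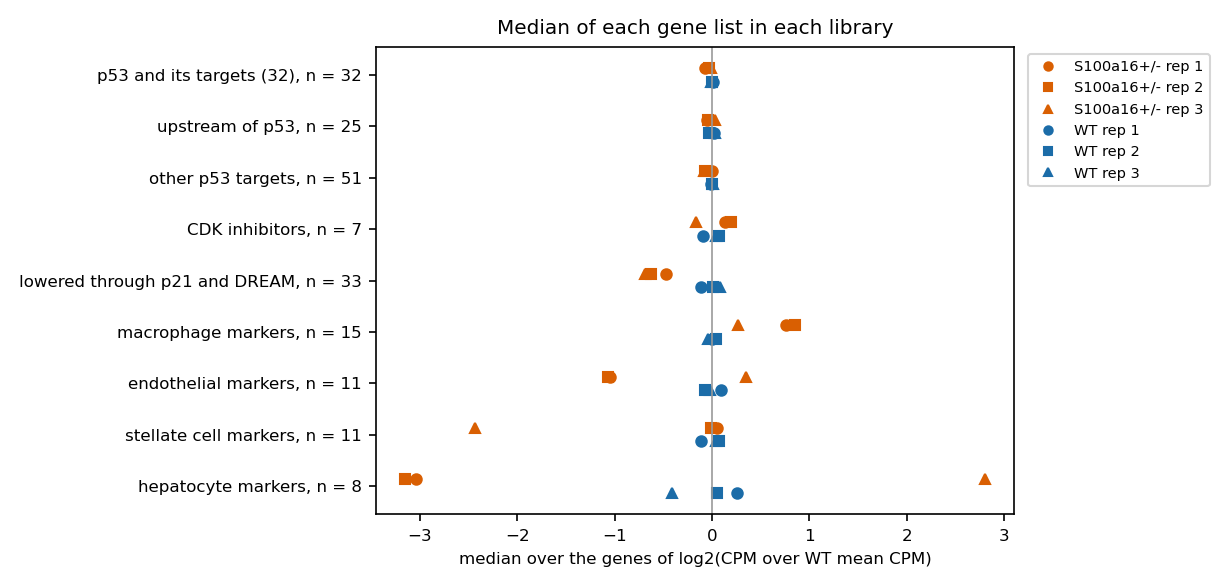
Median over each gene list of the log2 ratio of CPM (counts scaled to library depth) to the WT mean, per library, with the number of genes tested beside each list. The p53 members lie between -0.07 and 0.01 in every library. The genes listed as lowered through p21 lie from -0.47 to -0.69 in the S100a16+/- libraries, and the cell type markers are spread far more. The name of the p21 list is background, and the part of p21 was not tested.

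Markers of other cells moved with the genotype or with replicate 3. The summed FPKM of 15 macrophage markers was 17120, 18350 and 13330 in S100a16+/- replicates 1 to 3 and 10440 to 10990 in WT. By edgeR 5 of the 15 rose, where 2.85% of all genes did: Adgre1, Cd14, Cd5l, Marco and Msr1. Lyz2 and Marco make up most of that sum, and other macrophage markers differed from it. Timd4 was below WT in every S100a16+/- library, at 28.6, 31.8 and 17.95 against 36.6 to 39.1. C1qa, C1qb and C1qc were at 65.5% to 72.8% of their WT means in S100a16+/- replicates 1 and 2. Without replicate 3, 9 of the 15 were called higher and these 4 lower (edgeR), where 15.8% and 16.2% of all genes were. The 5 macrophage calls also ended without any library other than S100a16+/- replicate 3, in fits that called 24 to 77 of all genes (edgeR). The part of macrophages in the Fas values was not tested. The summed FPKM of 15 stellate cell markers was 1290, 1255 and 357 in S100a16+/- cells and 1158 to 1292 in WT. For the 11 of them tested, the median log2 ratio of CPM to the WT mean was 0.05, -0.01 and -2.43 in S100a16+/- replicates 1 to 3. The sum of 12 hepatocyte markers was 163.8, 163.8 and 769.9 against 233.9 to 276.5. For the 8 of them tested, the median log2 ratio was -3.04, -3.15 and 2.80 in S100a16+/- replicates 1 to 3. The 10 bile duct and mesothelial markers summed to 301.2, 290.7 and 89.9 against 101.2 to 125.5. The median log2 ratio of the 7 tested was 0.02, 0.01 and -2.86 in S100a16+/- replicates 1 to 3. Of these 7, 1 was called higher by edgeR, Spp1, where 2.85% of all genes were. Lymphocyte and neutrophil markers were low, at sums of 3.83 to 17.2 and of 16.8 to 31.5, S100a8 was called higher, and the neutrophil genes Ly6g, Retnlg, Ngp and S100a9 were at 0 counts in every library. The part of the cell mix in the p53 target values was not tested.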

How the data were processed

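Messenger RNA was measured in 6 libraries, 3 per genotype, with totals of 61979103 to 76291481 counts. For each gene and library the authors deposited, per the file headers, a whole-number count and its FPKM. A count of 0 carried an FPKM of 0.0001. Tools listed in the submitters' processing notes are HISAT2 2.0.4, StringTie 1.3.4d, cutadapt 1.9, UMI-tools, edgeR and DESeq2. Not given in the sources used here: their roles, the genome build, any collapse of molecular identifiers and the use of strand. Of the gene identifiers, 51920 (94.2% of those in GENCODE M21) had that annotation's GRCm38 coordinates.

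A gene needed an FPKM of 1 or more in 3 libraries (2 with a library left out) to enter the fit, made with edgeR 4.0.16 (R 4.3.3), TMM scaling, quasi-likelihood, genotype as the only term. Each SE was derived from the log2 change and the F statistic, as their ratio after taking the root of F. Alternatives were DESeq2 1.42.0, limma 3.58.1 on log2(FPKM + 1) and log2(FPKM + 0.1), library totals, other filters, a replicate block and each library left out. The edgeR step was tested on simulated data. The members and lists were chosen with earlier results of these data known. By rule, the text names S100a16, every member, up to 4 called genes of each wider list (or the 2 with the smallest p) and abundant markers; the KEGG list, Fasl, Ccnb2, Cdkn2a, Lrat and the markers named beyond the most abundant were named after their values were seen.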

Additional observations from a re-analysis of the deposited data

How the results depend on the processing

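Of the 32 members, 2 were called over all 6 libraries, and the same count came with library totals, an FPKM minimum of 5 (27 members tested) and limma with either pseudocount. DESeq2 called 6 (1888 over all genes, against 570 by edgeR). With no FPKM minimum, 0 members and 243 genes were called (edgeR). At an unadjusted p under 0.05 by edgeR were 11 members and 3582 of the 28336 genes tested. With a library left out, the count of members ran from 0 to 14 and that over all genes from 24 to 4185. The 14 and the 4185 came without S100a16+/- replicate 3. Without each other library 0 members and 24 to 77 genes were called (edgeR). In the fits without another library, 5 to 7 members were at an unadjusted p under 0.05 by edgeR. So were 1925 to 2179 of all genes, of which 13008 to 13064 were tested. With the replicate number as a block, 0 members and 0 genes were called (edgeR), with 5 members and 2207 genes at an unadjusted p under 0.05. Same-numbered libraries' deviations from their genotype means correlated at -0.14, 0.04 and -0.05, and those of unlike-numbered libraries at -0.08 to 0.11. With 3 libraries per genotype, these correlations cannot decide whether the numbers pair the libraries, and the labels do not say. The cause of the differing counts was not tested.

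Some members, none called under any alternative, turned sign; their log2 changes over all 6 libraries were near 0 except that of Gdf15, at -0.27. Btg2 was -0.004 and -0.0046 with limma at pseudocounts of 1 and 0.1. With each library left out in turn, the log2 change ran from -0.0758 to 0.1343 for Btg2, -0.0506 to 0.0166 for Aen, -0.0298 to 0.1275 for Bax, -0.7125 to 0.0537 for Gdf15, -0.1048 to 0.0018 for Mdm4, -0.1854 to 0.0671 for Sesn2 and -0.1214 to 0.0345 for Xpc. Ddb2, with 1350 counts over the 6 libraries, was the least deeply counted member.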

Other observations

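Some genes linked to p53 outside the 32 members had values in S100a16+/- replicates 1 and 2 far from those in replicate 3; they were chosen after their values were seen. Trp53i11, a p53-inducible gene, had an FPKM of 5.57 and 10.1 in replicates 1 and 2, 82.0 in replicate 3 and 82.6 to 102.6 in WT. Its log2 change was -1.45 over all 6 libraries (edgeR adjusted p = 0.457) and -3.48 without replicate 3. No p-value is given for the fit without replicate 3, because these genes were picked for their distance from that library. Bcl2l1, which encodes the survival protein BCL-XL, had 11.8 and 12.0 in replicates 1 and 2, 25.0 in replicate 3 and 23.3 to 24.4 in WT. The log2 change of Bcl2l1 was -0.50 over all 6 libraries (edgeR adjusted p = 0.395) and -0.93 without replicate 3. The opposite order was seen in Dram1, a lysosomal p53 target of autophagy, at 24.8 and 27.9 in replicates 1 and 2, 8.33 in replicate 3 and 10.9 to 12.4 in WT. In the same libraries the endothelial gene Cdh5 had an FPKM of 290.3 and 282.9 in replicates 1 and 2, 930.1 in replicate 3 and 627.9 to 698.5 in WT, while other endothelial markers ran differently: Fcgr2b had 26.7, 25.2 and 18.6 in replicates 1 to 3 against at most 15.1 in WT, and Eng 173.4, 164.7 and 211.9 against 157.0 to 176.1. The part of endothelial cells in these values was not tested.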
